A study of Mus musculus with 9 samples.

Results

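MHC class I antigen presentation genes were followed in cultured mouse prostate cancer cells after silencing of Nsd2 or treatment with a compound labelled MCTP. The 10 genes were chosen by symbol: H2-K1, H2-D1, B2m, Tap1, Tap2, Tapbp, Psmb8, Psmb9, Psmb10 and Nlrc5. Of these, 9 have a row among the 12842 genes of the deposited table. Nlrc5, the transcriptional coactivator that drives class I genes from their promoters, has no row, so its level was not analysed here.

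Nearly every nucleated cell shows fragments of its own proteins on MHC class I molecules, where CD8 T cells inspect them. Proteasomes cut the proteins, the TAP transporter carries the peptides into the endoplasmic reticulum, and tapasin helps to load them onto a heavy chain paired with beta-2-microglobulin. Interferon gamma raises most genes of this route, including proteasome subunits that replace the constitutive ones, and tumours often show low levels of the route, which hides them from T cells.

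All libraries came from NPK cells, which derive from genetically engineered mice with an inducible Cre and an R26R YFP reporter. In these mice Cre is active in luminal prostate cells, and the cell line was started from lung metastases. All 3 groups share this genotype. Nsd2 encodes a histone methyltransferase that writes H3K36me2, and the study asked how its silencing or inhibition alters the cells. Poly-A RNA was sequenced from 3 control, 3 shNsd2 and 3 MCTP libraries. The study used pLKO.1 lentiviral shRNA, and its methods name a control hairpin against luciferase. Which hairpin each shNsd2 library carries, and whether these control libraries carry the luciferase one, are not given in the sources used here. Sample titles number the MCTP compounds 39, 40 and 41 in replicates 1, 2 and 3. The paper describes only number 39, a putative NSD2 inhibitor that its authors do not conclude to act through NSD2, and the dose and time for these cells were not found. If the titles name 3 compounds, the MCTP group holds 1 library of each, replicate 2 being the one titled 40, and its standard errors and p-values describe the spread between compounds. The source names of the shNsd2 group read Nsd2 for replicate 1, Nsd3 for replicate 2 and Nsd4 for replicate 3, while all their titles say Nsd2. No label says that replicates are separate cultures, so p-values measure only the spread between these libraries, which may be technical. The mice were kept mainly on a C57BL/6 background.

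Values are the deposited log2 expression values, already scaled between libraries, and the depth of each library is unknown. Their transform is not named. If it was a variance-stabilizing one, which the study used for its tumour profiles, fold changes of weakly expressed genes such as Psmb9 and Psmb8 may be understated, and this was not tested. Each pair of groups was compared with limma over all genes that exceeded 3.78 in at least 3 of the 6 libraries, and a gene was called at a Benjamini-Hochberg adjusted p under 0.05. All 9 measured class I genes passed the filter in every comparison. The comparisons of shNsd2 and of MCTP with control share the same 3 control libraries, so they are given side by side.

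The shNsd2 label was checked first. Nsd2, listed under its older symbol Whsc1, had log2 values of 12.48, 12.43 and 12.42 in control, 11.56, 11.61 and 11.68 in shNsd2, and 12.15, 12.21 and 12.07 in MCTP libraries. Every shNsd2 library lay below every other library, including those with Nsd3 or Nsd4 as source name. The log2 change of Nsd2 with shNsd2 was -0.83 (SE 0.04, limma adjusted p = 2.26e-06). Nsd2 was also called lower with MCTP, at -0.30 (SE 0.05, limma adjusted p = 0.00562). Nsd3, listed as Whsc1l1, had a difference of -0.02 with shNsd2 (limma adjusted p = 0.744). Among the libraries, MCTP replicate 2 stood apart: on the first principal component, which held 56.4% of the variance, it lay at 9.2, between the controls (-11.7 to -5.8) and MCTP replicates 1 and 3 (20.7 and 25.6). Class I results for MCTP are therefore also given without it. For the other gene lists and the chromosome 17 interval this was chosen after seeing the data, and counts are given.

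With MCTP, 5 of the 9 genes rose in the limma test: H2-D1, Tap1, Tap2, Psmb8 and Psmb9. None was called lower, and at an unadjusted p under 0.05 limma gave 6 higher and 0 lower. Over all 12216 genes tested with limma, 35.2% were called, 18% higher and 17.2% lower. The median log2 difference of the 9 genes was 0.19, against -0.01 over all genes. MCTP and control libraries did not overlap for 6 of the 9, all higher with MCTP, where 50.6% of all genes tested had groups that did not overlap. Without MCTP replicate 2, 7 of the 9 were called, all higher, Tapbp and Psmb10 being added, while the calls over all genes went from 4305 to 7384. H2-K1 was then at 0.07 (limma adjusted p = 0.344), B2m at -0.01 (limma adjusted p = 0.913) and Tap1 at 1.09 (limma adjusted p = 1.18e-06). The count was 4 without control replicate 1, control replicate 2 or MCTP replicate 1, where H2-D1 was lost, and 4 after GC correction, where Psmb9 was lost. Calls over all genes were then 2366, 2162, 2046 and 5656, in that order.

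With shNsd2, 5 of the 9 genes were also called, 2 higher (Tap1 and Psmb8) and 3 lower (H2-K1, B2m and Psmb10). This share is close to that of all 12205 genes tested, of which 47.8% were called, 23.1% higher and 24.8% lower. The shNsd2 and control libraries were fully apart for 4 of the 9, against 57.2% of all genes tested. The median log2 difference was -0.07, against 0.00 over all genes. The count rests on most of the libraries: it was 2 without control replicate 2, control replicate 3 or shNsd2 replicate 3, and 3 without shNsd2 replicate 1 or 2, and only Tap1 and B2m were called with every library left out in turn. After GC correction 6 were called, 1 higher and 5 lower, while the calls over all genes went from 5836 to 6825. With a library left out, calls over all genes ranged from 4340 to 6018.

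Set directly against MCTP, the shNsd2 libraries had lower means for all 9 genes, and 7 were called lower, all but H2-K1 and Psmb10. None was called higher, and at an unadjusted p under 0.05 limma gave 8 lower and 0 higher. The differences were -0.72 for Tap1, -0.61 for Tap2 (limma adjusted p = 8.42e-04), -0.50 for Psmb8 (9.9e-04), -0.24 for Tapbp (0.0172), -0.24 for H2-D1 (0.0412), -0.18 for Psmb9 (0.00438) and -0.18 for B2m (0.0288), against -0.23 for Psmb10 (0.0759) and -0.14 for H2-K1 (0.114). Of all 12217 genes tested, 43.2% were called, 20.6% higher and 22.6% lower in shNsd2. Libraries were fully apart for 7 of the 9, against 55% of all genes tested. The median difference was -0.24 on the log2 scale, against 0.01 over all genes. The count was 4 without shNsd2 replicate 2, shNsd2 replicate 3 or MCTP replicate 1 and 5 without shNsd2 replicate 1 or MCTP replicate 3, and Tap1, Tap2, Psmb8 and Psmb9 were called with every library left out in turn. Without MCTP replicate 2 it was 9, while the calls over all genes went from 5276 to 7781. Calls over all genes numbered 3391 to 3571 without MCTP replicate 1 or any one shNsd2 library, and 4662 without MCTP replicate 3.

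**Figure D1:**
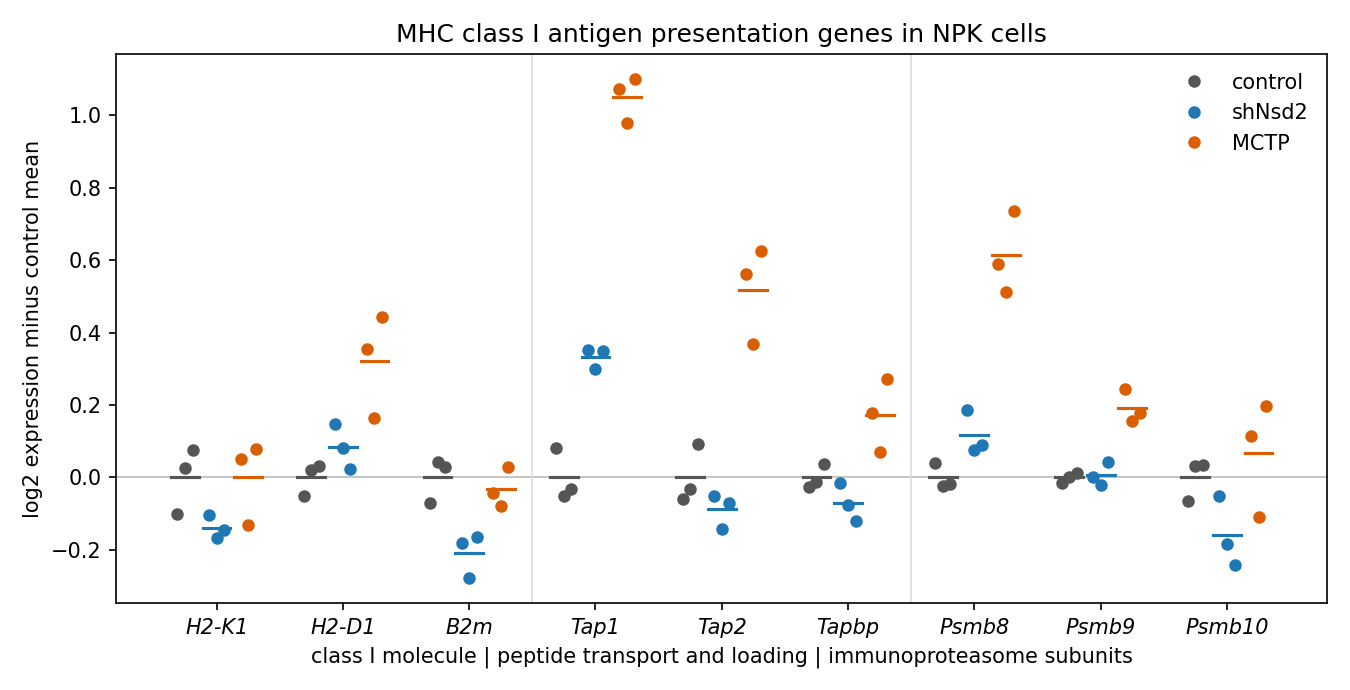
Log2 expression of the 9 measured class I genes minus the control mean, with a point for each of 3 libraries per group and a line at the group mean. Tap1 showed the widest gap from control, with MCTP libraries at 8.38 to 8.50 and shNsd2 libraries at 7.70 to 7.75 where controls lay at 7.35 to 7.48 on the log2 scale, while MCTP and control libraries overlapped for H2-K1, B2m and Psmb10.

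The class I molecule consists of a polymorphic heavy chain, encoded by H2-K1 or H2-D1, and beta-2-microglobulin, encoded by B2m. H2-K1 had log2 values of 12.56, 12.69 and 12.74 in control, 12.56, 12.50 and 12.52 in shNsd2, and 12.72, 12.53 and 12.74 in MCTP libraries. The shNsd2 libraries lay just below the lowest control, and the MCTP libraries spanned the control range. H2-K1 fell by 0.14 on the log2 scale with shNsd2 (SE 0.05, limma adjusted p = 0.0401). That call was lost without control replicate 2 (limma adjusted p = 0.123), control replicate 3 (0.134), or shNsd2 replicate 1 (0.0646), 2 (0.13) or 3 (0.0803), in a fit of all 9 libraries (0.124) and after median centring (0.0791). With MCTP the log2 difference was 0.00, with a 95% confidence interval from -0.17 to 0.17 and a limma adjusted p of 0.999.

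H2-D1, the other classical heavy chain gene measured here, had values of 13.02, 13.09 and 13.10 in control, 13.22, 13.15 and 13.09 in shNsd2, and 13.42, 13.23 and 13.51 in MCTP libraries. All MCTP libraries were above all others, MCTP replicate 2 by the smallest margin, and shNsd2 replicate 3 lay within the control range. With MCTP H2-D1 rose by 0.32 on the log2 scale, or 1.25-fold (SE 0.08, limma adjusted p = 0.0165). Without MCTP replicate 2 the rise was 0.40 (limma adjusted p = 1.37e-04). The call was lost without control replicate 1 (limma adjusted p = 0.0624), control replicate 2 (0.0564) or MCTP replicate 1 (0.0733), where the log2 difference was 0.29, 0.33 and 0.30. With shNsd2 the difference was 0.08 (limma adjusted p = 0.13).

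The balance between the heavy chains was also compared within each library. The log2 difference H2-D1 minus H2-K1 within each library was 0.46, 0.40 and 0.36 in control, 0.66, 0.65 and 0.58 in shNsd2, and 0.71, 0.70 and 0.77 in MCTP. All 6 treated libraries exceeded all 3 controls, and the MCTP libraries exceeded the shNsd2 libraries. Taken as 2 to the power of the mean difference, the ratio of H2-D1 to H2-K1 went from 1.32 in control to 1.55 in shNsd2 and 1.65 in MCTP. This ratio is not corrected for transcript length. A ratio shows unequal change and not which gene moved. Class I heavy chains share near-identical sequence, and how reads common to them were counted is not given in the sources used here, so the split between H2-K1 and H2-D1 is uncertain.

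B2m, the invariant light chain without which heavy chains do not reach the cell surface, had values of 12.10, 12.21 and 12.20 in control, 11.99, 11.89 and 12.01 in shNsd2, and 12.13, 12.09 and 12.20 in MCTP libraries. All shNsd2 libraries were below all others, and MCTP libraries overlapped the controls. B2m fell by 0.21 on the log2 scale with shNsd2 (SE 0.04, limma adjusted p = 0.00493), and it was called lower under all 13 alternative settings, with limma adjusted p from 9.17e-04 to 0.0451. With MCTP the log2 difference was -0.03 (95% confidence interval -0.16 to 0.10, limma adjusted p = 0.678). The sign of that difference turned after median centring (0.00) and after correction for GC content (0.17). In bulk RNA a change of this kind cannot be divided into fewer expressing cells and less RNA per cell.

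Tap1 and Tap2 form the transporter that moves cytosolic peptides into the endoplasmic reticulum. Tap1 had log2 values of 7.48, 7.35 and 7.37 in control, 7.75, 7.70 and 7.75 in shNsd2, and 8.48, 8.38 and 8.50 in MCTP libraries. The groups formed separate tiers with no overlap, MCTP at the top and shNsd2 between. Tap1 rose by 1.05 on the log2 scale, or 2.07-fold, with MCTP (SE 0.06, limma adjusted p = 5.7e-05). It ranked 43 among all rises with MCTP, and 70 of the 12216 genes tested differed by more than 1 in either direction. With shNsd2 it rose by 0.33, or 1.26-fold (SE 0.05, limma adjusted p = 5.49e-04). The direct difference, shNsd2 minus MCTP, was -0.72 (SE 0.05, limma adjusted p = 9e-05). The MCTP change ranged from 0.95 to 1.09 and the shNsd2 change from 0.28 to 0.38 over the alternative settings, and Tap1 was called in each of them.

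Tap2, the partner subunit, had values of 8.56, 8.59 and 8.71 in control, 8.57, 8.48 and 8.55 in shNsd2, and 9.18, 8.99 and 9.25 in MCTP libraries. MCTP libraries were above all others, while shNsd2 and control libraries overlapped. Tap2 rose by 0.52, or 1.43-fold, with MCTP (SE 0.08, limma adjusted p = 0.0033), and by 0.59 without MCTP replicate 2. With shNsd2 the difference was -0.09 (limma adjusted p = 0.196), and it was called lower only after GC correction (-0.14, limma adjusted p = 0.0195). The difference Tap1 minus Tap2 within each library was -1.07, -1.23 and -1.34 in control, -0.81, -0.77 and -0.80 in shNsd2, and -0.71, -0.60 and -0.74 in MCTP libraries. Treated libraries lay above all controls in this difference, and those with MCTP above those with shNsd2.

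Tapbp encodes tapasin, which bridges the transporter and the empty class I molecule. Its values were 11.34, 11.36 and 11.41 in control, 11.35, 11.29 and 11.25 in shNsd2, and 11.54, 11.44 and 11.64 in MCTP libraries. MCTP libraries lay above all others without a call: the log2 difference was 0.17 (SE 0.06, limma adjusted p = 0.0614). Without MCTP replicate 2 it was 0.23 (limma adjusted p = 0.00322), and it was also called in a fit of all 9 libraries (limma adjusted p = 0.028) and after quantile normalization (limma adjusted p = 0.0361). It was 0.08 after GC correction (limma adjusted p = 0.106) and 0.12 without MCTP replicate 3 (limma adjusted p = 0.16). With shNsd2 the difference was -0.07 (limma adjusted p = 0.17), called lower only after GC correction (limma adjusted p = 0.00378). The annotated span of Tapbp contains Zbtb22 on the same strand, and reads from the overlap cannot be assigned.

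Psmb8, Psmb9 and Psmb10 encode the catalytic subunits of the immunoproteasome, which take the places of Psmb5, Psmb6 and Psmb7 and favour peptides that bind class I molecules. Psmb8 had log2 values of 5.95, 5.89 and 5.89 in control, 6.10, 5.99 and 6.0 in shNsd2, and 6.50, 6.42 and 6.65 in MCTP libraries. As for Tap1, the groups did not overlap and MCTP stood highest, but the step to shNsd2 was small. Psmb8 rose by 0.61, or 1.53-fold, with MCTP (SE 0.06, limma adjusted p = 4.88e-04), and by 0.66 without MCTP replicate 2. With shNsd2 it rose by 0.12 (SE 0.04, limma adjusted p = 0.0388). The shNsd2 call was lost without control replicate 2 (limma adjusted p = 0.113), control replicate 3 (0.0985), shNsd2 replicate 1 (0.141) or shNsd2 replicate 3 (0.0505), in a fit of all 9 libraries (0.141) and after GC correction (0.207).

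Psmb9 was the weakest of the 9 genes. Its values were 4.85, 4.87 and 4.88 in control, 4.87, 4.85 and 4.91 in shNsd2, and 5.11, 5.03 and 5.05 in MCTP libraries. MCTP libraries stood above all others by a small margin, and shNsd2 libraries overlapped the controls. Psmb9 rose by 0.19 with MCTP (SE 0.03, limma adjusted p = 0.00485) and by 0.21 without MCTP replicate 2, and the call was lost after GC correction (log2 difference 0.10, limma adjusted p = 0.0891). With shNsd2 the difference was 0.01 (limma adjusted p = 0.839). The annotated spans of Psmb9 and Tap1 overlap by 212 bases on opposite strands, and whether the counting used strand is not given in the sources used here.

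Psmb10 is the only immunoproteasome gene outside chromosome 17. Its values were 9.21, 9.30 and 9.30 in control, 9.22, 9.09 and 9.03 in shNsd2, and 9.38, 9.16 and 9.47 in MCTP libraries. Here the groups overlapped: shNsd2 replicate 1 lay within the control range, and MCTP replicate 2 below it. Psmb10 fell by 0.16 with shNsd2 (SE 0.06, limma adjusted p = 0.0449), a call lost without control replicate 2 (limma adjusted p = 0.132), control replicate 3 (0.119), shNsd2 replicate 2 (0.131) or shNsd2 replicate 3 (0.128), in a fit of all 9 libraries (0.157), after quantile normalization (0.0883) and after median centring (0.0772). With MCTP the difference was 0.07 (limma adjusted p = 0.545), and without MCTP replicate 2 it was 0.16 (limma adjusted p = 0.0417).

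The constitutive counterparts did not fall in exchange. With MCTP all 3 rose: Psmb5 by 0.39 (limma adjusted p = 0.018), Psmb6 by 0.33 (limma adjusted p = 0.0396) and Psmb7 by 0.19 (limma adjusted p = 0.0472), or by 0.49, 0.44 and 0.25 without MCTP replicate 2. With shNsd2, Psmb5 rose by 0.27 (limma adjusted p = 0.00159) and Psmb7 by 0.13 (limma adjusted p = 0.0161), and the Psmb6 difference was 0.11 (limma adjusted p = 0.0902). Psmb8 minus Psmb5 was -5.75 ± 0.09 in control, -5.90 ± 0.03 in shNsd2 and -5.53 ± 0.09 in MCTP (log2, SD, n = 3). All MCTP libraries lay above the controls in this difference and all shNsd2 libraries below them. Psmb9 minus Psmb6 was -7.24 ± 0.06 in control, -7.34 ± 0.08 in shNsd2 and -7.38 ± 0.20 in MCTP. The difference between MCTP and control was within the spread of the MCTP libraries, at -7.36, -7.19 and -7.58. Of these, only MCTP replicate 2 lay within the control range (-7.31 to -7.19), and replicates 1 and 3 lay below it. Psmb10 minus Psmb7 was -3.01 ± 0.04 in control, -3.30 ± 0.06 in shNsd2 and -3.13 ± 0.06 in MCTP, and all 6 treated libraries lay below all 3 controls.

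Levels were compared between genes per kilobase of transcript, taking 2 to the power of the log2 value over the length of the longest coding transcript. If the transform was a variance-stabilizing one, levels of weakly expressed genes such as Psmb9 and Psmb8 may be overstated and their spread understated. This was not tested. In control libraries B2m was highest at 5363 ± 222 per kilobase (SD, n = 3), followed by H2-D1 at 4089 ± 127, H2-K1 at 4014 ± 253, Tapbp at 911 ± 21.6, Psmb10 at 471 ± 18.3, Tap2 at 114 ± 6.48, Tap1 at 57.3 ± 2.88, Psmb8 at 36.9 ± 0.927 and Psmb9 at 21.6 ± 0.221. H2-D1 and H2-K1 did not differ beyond their spread, and all other neighbours in this order were separate in every control library. With MCTP the order of the means was the same, but H2-D1 (5120 ± 498) reached the range of B2m (5250 ± 197) and Tap1 rose to 119 ± 5.16. In shNsd2 libraries B2m at 4644 ± 195 and H2-D1 at 4337 ± 186 overlapped as well, with H2-K1 below at 3641 ± 81.2.

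Most of the route sits in the MHC of mouse chromosome 17. In the GRCm38 annotation, Psmb9, Tap1, Psmb8 and Tap2 occupy 34335 bases at chr17:34181987-34216321, with 495 bases between Tap1 and Psmb8 and 2072 between Psmb8 and Tap2. With MCTP these 4 adjacent genes all rose, by 0.19, 1.05, 0.61 and 0.52 in map order. Tapbp at chr17:33915899-33929292 and H2-K1 at chr17:33996017-34000347 lie on one side of them and H2-D1 at chr17:35262730-35267499 on the other. B2m is on chromosome 2 at chr2:122147686-122153083, and Psmb10 on chromosome 8 at chr8:105935735-105938444.

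The interval from Tapbp to Tap2 holds 23 protein-coding genes, of which 21 have a row, 15 of them outside the class I genes. Of the 14 tested, 6 rose and none fell with MCTP by limma (7 and 0 at an unadjusted p under 0.05), with log2 differences from -0.14 to 0.37 and a median of 0.11. Over all genes tested with MCTP, 18% were called higher and 17.2% lower. With MCTP replicate 2 left out, 9 of the 14 rose and none fell. Calls over all genes then went from 4305 to 7384 of 12216, 3641 higher and 3743 lower. The highest of the 14 with all MCTP libraries was Slc39a7, a zinc transporter gene, at 0.37 (limma adjusted p = 0.00726), below the values of Tap1, Psmb8 and Tap2. With shNsd2, 5 rose and 1 fell, with differences from -0.12 to 0.36, where 23.1% of all genes were called higher and 24.8% lower. Set against MCTP, shNsd2 had 3 of the 14 lower and none higher by limma (4 and 1 at an unadjusted p under 0.05). Without MCTP replicate 2, 6 were lower and none higher. Over all genes this comparison gave 22.6% lower and 20.6% higher, and without MCTP replicate 2 3923 lower and 3858 higher of 12217.

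**Figure D2:**
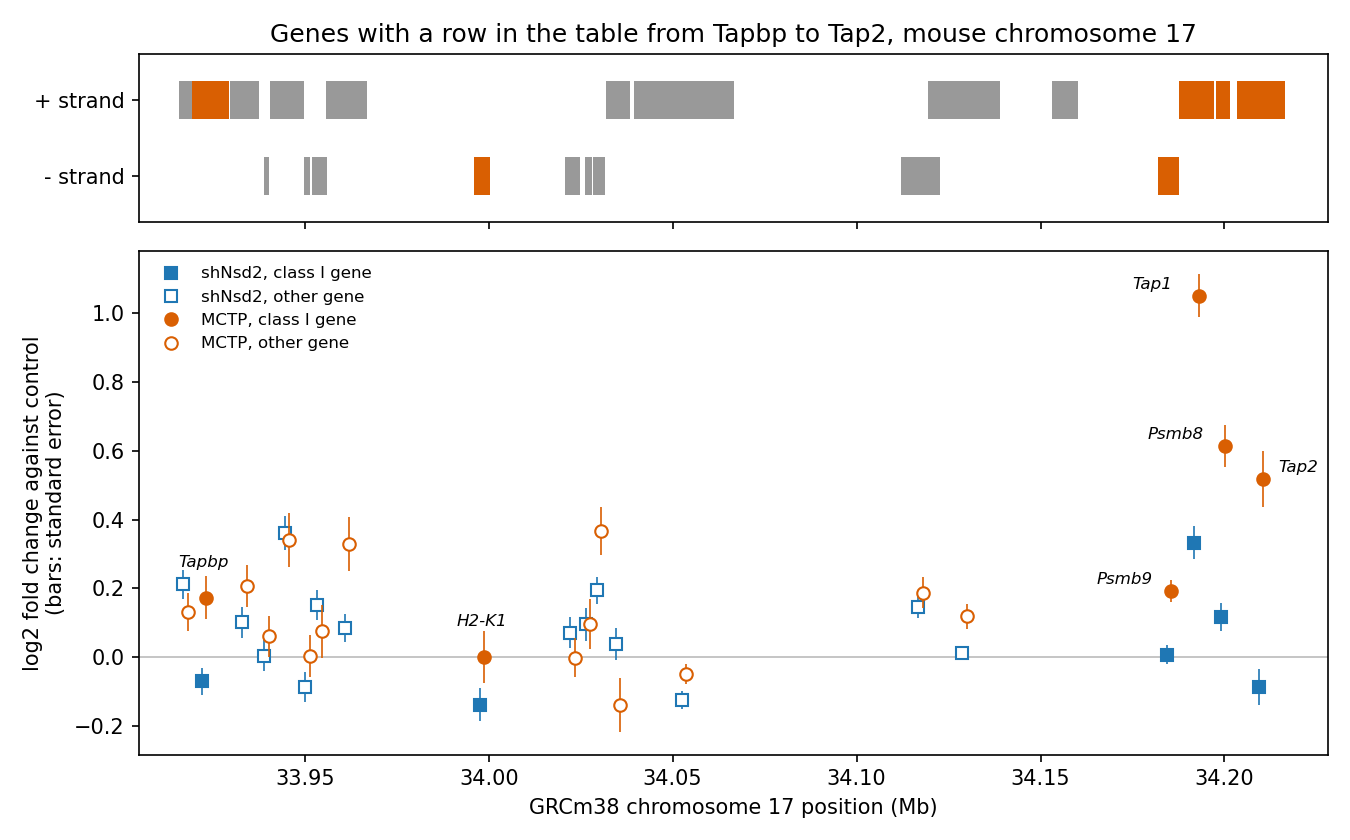
Positions of the genes with a row from Tapbp to Tap2 on chromosome 17 (top, by strand, class I genes in orange, Zbtb22 drawn in grey over the start of Tapbp) and their log2 fold changes against control with standard errors (bottom, squares for shNsd2, circles for MCTP, filled for class I genes). With MCTP, Tap1, Psmb8 and Tap2 at 1.05, 0.61 and 0.52 lie above every other gene of the interval, whose highest value is 0.37.

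Promoter sequences were examined to show which short motifs these genes share, and any part of a motif in the changes was not tested. RefSeq sequences (GRCm38.p6) of the 250 bases before the start were found for 8 of the 10 genes, and there was no entry for Tap2 and Nlrc5. RefSeq starts differ from those of the annotation used for the gene spans. The windows of H2-D1, Tapbp, Psmb8 and Psmb9 lie inside those spans, so whether they are upstream depends on the annotation. Both strands were searched for AANNGAAA, the core of interferon regulatory factor motifs, TTCNNNGAA, a palindrome, CCAAT, the motif of factor NF-Y, GGGGCGG, the motif of Sp1, and the κB motif. Among 32851 promoters of the same length, 21.3% held AANNGAAA, 7.02% TTCNNNGAA, 33.8% CCAAT, 21% GGGGCGG and 7.25% κB. H2-K1, H2-D1 and B2m, the genes of the class I molecule, each held κB and AANNGAAA side by side. The stretches below give these motifs in capitals, 5′ to 3′ toward the gene, with the AANNGAAA match on the opposite strand in H2-K1 and H2-D1. They lie at chr17:34000415-34000473 on the minus strand for H2-K1, chr17:35262908-35262966 on the plus strand for H2-D1 and chr2:122147535-122147585 on the plus strand for B2m.
H2-K1: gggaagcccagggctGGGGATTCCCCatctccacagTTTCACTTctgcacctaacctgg
H2-D1: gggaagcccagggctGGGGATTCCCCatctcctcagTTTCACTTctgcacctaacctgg
B2m: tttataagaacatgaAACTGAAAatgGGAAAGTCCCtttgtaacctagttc
Of the 59 bases, 58 are identical between H2-K1 and H2-D1. The log2 differences of these genes from control with MCTP were 0.00 and 0.32, with an uncertain split of reads between them. Any link between sequence and change was not tested. In B2m the order of the motifs is reversed.

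Psmb9 and Tap1 are transcribed away from each other, and 225 bases separate their RefSeq starts, at chr17:34187331-34187555. The stretch is shown because both genes rose with MCTP and share it, on the plus strand, which reads toward Tap1, with the CCAAT match and the GGGGCGG match (on the opposite strand) in capitals. The window of neither gene held κB, AANNGAAA or TTCNNNGAA.
Psmb9-Tap1: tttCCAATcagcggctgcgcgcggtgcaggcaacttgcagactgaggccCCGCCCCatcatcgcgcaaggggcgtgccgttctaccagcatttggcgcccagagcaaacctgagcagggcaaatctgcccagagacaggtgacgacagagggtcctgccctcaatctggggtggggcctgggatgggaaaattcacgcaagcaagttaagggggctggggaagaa
Psmb8 was the only gene of the 8 with TTCNNNGAA in its window, at chr17:34198083-34198121 on the plus strand, with the motif in capitals.
Psmb8: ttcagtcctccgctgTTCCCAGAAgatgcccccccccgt
Psmb10 held none of the 5 motifs, and Tapbp held only CCAAT. A match describes letters and does not show that a factor binds there.

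Other genes of the route were counted from lists chosen by function. For all these lists, the share to compare with is that of all genes tested. With MCTP 18% were called higher and 17.2% lower, and with shNsd2 23.1% and 24.8%. Without MCTP replicate 2, 3641 of 12216 genes were called higher with MCTP and 3743 lower. Of 22 other class I and class I-like chains, 9 had a row. With MCTP 5 rose and 2 fell (4 and 2 without MCTP replicate 2), and with shNsd2 2 rose and 4 fell. H2-T23, which encodes the nonclassical Qa-1 molecule read by NK cell receptors, fell by 0.35 with MCTP (limma adjusted p = 0.0117) and by 0.21 with shNsd2 (limma adjusted p = 0.00845). H2-M3, which presents formylated peptides, fell by 0.36 with MCTP (limma adjusted p = 0.0124) and by 0.34 with shNsd2 (limma adjusted p = 0.00219). Cd1d1, which presents lipids, rose by 0.37 with MCTP and 0.22 with shNsd2 (limma adjusted p = 0.00692 and 0.00849). Fcgrt, the heavy chain of the neonatal Fc receptor, rose by 0.25 with MCTP (limma adjusted p = 0.0188) and fell by 0.53 with shNsd2 (limma adjusted p = 2.41e-05). Hfe, a class I-like regulator of iron uptake, rose by 0.31 with MCTP (limma adjusted p = 0.0068).

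Of 10 loading chaperones and quality control genes, all measured, 1 rose and 1 fell with MCTP (3 and 2 without MCTP replicate 2), and 5 rose and 2 fell with shNsd2. Calr, the chaperone of the loading complex, rose by 0.25 with MCTP (limma adjusted p = 0.0268) and 0.21 with shNsd2 (limma adjusted p = 0.0044). Tapbpl, a tapasin relative that edits peptides outside the loading complex, rose by 0.21 with shNsd2 (limma adjusted p = 0.00896) and differed by 0.02 with MCTP. Hspa5, the major chaperone of the endoplasmic reticulum, fell by 0.22 with MCTP (limma adjusted p = 0.017) and rose by 0.22 with shNsd2 (limma adjusted p = 0.00184). Sar1b, which encodes a GTPase of transport from the endoplasmic reticulum, fell by 0.20 with shNsd2 (limma adjusted p = 0.0136).

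Of 11 alpha and non-catalytic beta subunits of the 20S core, 2 rose with MCTP, Psmb3 by 0.43 (limma adjusted p = 0.0141) and Psmb1 by 0.22 (limma adjusted p = 0.0377), and none fell. When MCTP replicate 2 was left out, 7 rose and 1 fell, while calls over all genes went from 4305 to 7384 of 12216. None of the 11 was called with shNsd2, against 47.8% of all genes tested. At an unadjusted p under 0.05, limma gave 4 higher and 0 lower with MCTP, and 3 higher and 1 lower with shNsd2. Of 9 activators and assembly factors, 3 rose and 1 fell with shNsd2, while none rose and 1 fell with MCTP in the limma test (1 and 1 at an unadjusted p under 0.05). Of these 9, 4 rose and 2 fell with MCTP when its replicate 2 was left out. Psme3 rose by 0.34 with shNsd2 (limma adjusted p = 1.73e-04), as did the assembly genes Psmg3 by 0.27 and Psmg4 by 0.20 (limma adjusted p = 0.00378 and 0.01). The gene that fell with MCTP was Psmg2, by 0.20 (limma adjusted p = 0.0241). Psme1, a subunit of the interferon-inducible PA28 activator, fell by 0.13 with shNsd2 (limma adjusted p = 0.0379), and without MCTP replicate 2 it rose by 0.17 with MCTP (limma adjusted p = 0.0123).

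Of 9 peptidases that trim or destroy peptides, 1 rose and 3 fell with MCTP (3 and 5 without MCTP replicate 2), and 2 rose and 2 fell with shNsd2. Erap1, the aminopeptidase that trims peptides in the endoplasmic reticulum to the length class I molecules hold, fell in both, with log2 values of 10.14 on average in control, 9.86 in shNsd2 and 9.70 in MCTP. Its fall was 0.44 with MCTP (limma adjusted p = 0.0113) and 0.28 with shNsd2 (limma adjusted p = 0.0047). Tpp2, a cytosolic peptidase, fell by 0.27 with MCTP and 0.13 with shNsd2 (limma adjusted p = 0.0296 and 0.044). Blmh also fell with MCTP, by 0.20 (limma adjusted p = 0.0203). The gene that rose with MCTP was Npepps, by 0.28 (limma adjusted p = 0.00562), and the 2 that rose with shNsd2 were Thop1 and Lap3, each by 0.19 (limma adjusted p = 0.0124 and 0.00387).

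Of 27 transcription factors and interferon gamma pathway genes, 26 had a row and 25 were tested. With shNsd2 3 rose and 12 fell, and with MCTP 7 rose and 4 fell (8 and 6 without MCTP replicate 2). Ciita, the class II relative of Nlrc5, has no row. Irf1, a main activator of Tap1 and Psmb9 in the interferon response, was at 10.66 in control, 10.65 in shNsd2 and 10.74 in MCTP and was not called, but without MCTP replicate 2 it rose by 0.14 with MCTP (limma adjusted p = 0.0283). Irf9 rose by 0.27 with MCTP (limma adjusted p = 0.0069). Rela, a κB subunit, rose by 0.29 with MCTP and 0.19 with shNsd2 (limma adjusted p = 0.0219 and 0.0134). Nfkb1, which encodes the p50 subunit, fell by 0.28 and 0.25 (limma adjusted p = 0.00533 and 3.66e-04). Creb1 fell by 0.51 with MCTP (limma adjusted p = 0.0231), and Jak2 fell by 0.41 and Irf2 by 0.26 with shNsd2 (limma adjusted p = 0.00114 and 9.53e-04). Nfya, a subunit of the CCAAT-binding factor, rose by 0.43 with shNsd2 (limma adjusted p = 5.9e-05).

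Of 20 interferon-stimulated genes outside the route, 16 had a row and 13 were tested. With MCTP 4 rose and none fell by limma (7 and 0 at an unadjusted p under 0.05), and with shNsd2 4 rose and 4 fell. When MCTP replicate 2 was left out, 8 rose and 1 fell with MCTP. The 4 called with all MCTP libraries were Ifi35 by 0.55 (limma adjusted p = 0.00318), Xaf1 by 0.41 (limma adjusted p = 6.44e-04), Gbp2 by 0.40 (limma adjusted p = 0.00238) and Ddx58 by 0.21 (limma adjusted p = 0.016). Of these, Gbp2 fell by 0.31 and Ddx58 by 0.45 with shNsd2 (limma adjusted p = 8.72e-04 and 3.96e-05). Rsad2 rose by 0.45 and Ifitm3 fell by 0.22 with shNsd2 (limma adjusted p = 3.09e-04 and 0.003). Mx1, Mx2, Gbp3 and Ifi44 have no row.

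Of 14 surface ligands of T and NK cells, 9 had a row, with 2 higher and 1 lower with MCTP (3 and 1 without MCTP replicate 2) and 1 higher and 4 lower with shNsd2. Cd80, a costimulatory ligand of T cells, had log2 means of 8.79 in control, 8.33 in shNsd2 and 9.69 in MCTP. It rose by 0.90 with MCTP (limma adjusted p = 2.79e-04) and fell by 0.45 with shNsd2 (limma adjusted p = 6.31e-04). Raet1e, listed as Raet1c and matched by gene identifier, is a ligand of the activating receptor NKG2D and fell by 0.43 with shNsd2 (limma adjusted p = 2.66e-04), and H60b, of the same kind, by 0.25 (limma adjusted p = 9.45e-04). Raet1d, another such ligand, rose by 0.09 with MCTP (limma adjusted p = 0.0453), and Pvrl2, a ligand of DNAM-1 on NK cells, rose by 0.22 with shNsd2 (limma adjusted p = 0.00442). Cd47, which restrains phagocytes, fell by 0.38 with MCTP and 0.18 with shNsd2 (limma adjusted p = 0.00125 and 0.0038). Cd274, which encodes PD-L1, was at 4.84, 4.79 and 4.95 in control, shNsd2 and MCTP. It was called against control in neither group, and shNsd2 minus MCTP was -0.16 (limma adjusted p = 0.0255).

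Markers of other cells were examined because immune cells express class I genes strongly. Of 12 immune cell markers, only Cd68 had a row, and Ptprc, Cd3e, Itgam, Csf1r and Adgre1 are among the 11 without. Cd68, which lysosome-rich cells of other kinds also express, rose by 0.73 with MCTP (limma adjusted p = 6.88e-04) and by 0.23 with shNsd2 (limma adjusted p = 0.00227). Its linear level was 90.2, 91 and 96.8 in control, 110, 110 and 105 in shNsd2, and 147, 142 and 173 in MCTP libraries. Its part in the class I results was not tested. Of 10 MHC class II genes, only H2-DMa and H2-DMb1 had a row, at 4.09 and 2.81 in control, near the lower end of the table, and H2-DMa rose by 0.12 with MCTP (limma adjusted p = 0.037).

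Of 5 endothelial markers, only Cdh5 had a row, at 3.50 in control. Of 8 fibroblast markers, 4 had a row, led by Col3a1 at 10.80 in control. With MCTP Col1a1 fell by 0.33 (limma adjusted p = 0.0105), and with shNsd2 Col1a1 fell by 0.30 and Col3a1 by 0.28 (limma adjusted p = 0.00111 and 0.0028), while Pdgfra, at 3.99 in control, rose by 0.13 (limma adjusted p = 0.00161). Dcn was at 2.33. The summed linear level of the fibroblast markers was 1934 to 2230 in control, 1722 to 1734 in shNsd2 and 1794 to 1991 in MCTP libraries, and its part in the results was not tested.

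The prostate epithelial label was checked in the same way. Krt8, Krt19 and Krt18, keratins of luminal cells, were at 16.28, 16.20 and 15.38 in control. Epcam was at 3.55, near the lower end, and Krt5 and the prostate secretory gene Pbsn have no row. Of the prostate lineage genes, Hoxb13 was at 10.28 and Tmprss2 at 6.89. Tmprss2 rose by 0.31 with MCTP and fell by 0.17 with shNsd2 (limma adjusted p = 0.00493 and 0.0115). Of 8 epithelial markers 7 had a row and 6 were tested, of which 2 rose and 1 fell with MCTP (3 and 1 without MCTP replicate 2), and 2 rose and 3 fell with shNsd2. The basal keratin Krt14 rose by 1.19 with MCTP and 0.78 with shNsd2 (limma adjusted p = 2.74e-04 and 2.22e-05). Krt19 rose by 0.37 with MCTP (limma adjusted p = 0.0392) and fell by 0.34 with shNsd2 (limma adjusted p = 0.00257). Cdh1, the adhesion gene of epithelial cells, fell by 0.34 with MCTP and 0.20 with shNsd2 (limma adjusted p = 0.00325 and 0.00368). With shNsd2, Krt8 fell by 0.21 and Krt7 rose by 0.22 (limma adjusted p = 0.0193 and 0.0117).

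Across the 9 libraries, 12224 genes were ranked by how closely their values followed the class I genes, as a description of these libraries with no test, since the groups themselves separate. The genes most like the mean of the 9 were Gabarapl2 (Pearson r 0.997), Nxn (0.995), Acadvl (0.995), Cby1 (0.994) and Srp14 (0.994). Gabarapl2, an autophagy gene of the Atg8 family, had log2 values of 10.86 to 10.89 in control, 10.84 to 10.88 in shNsd2 and 11.04 to 11.18 in MCTP libraries. For single genes other than Tap2 the closest were Celf5 for Tap1 (0.995), BC031181 for Psmb8 (0.996), St7l for Psmb9 (0.991), Slc39a11 for Tapbp (0.993), Ift46 for H2-D1 (0.997), Pmpcb for H2-K1 (0.974), Selenbp1 for B2m (0.954) and Psme1 for Psmb10 (0.989). Among the class I genes themselves, Tap1 and Psmb8 had an r of 0.98 and H2-K1 and Psmb10 of 0.91, while H2-K1 and Tap1 had 0.15 and B2m and Tap1 0.07.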

How the data were processed

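Libraries were grouped by sample titles. The authors deposited log2 expression values for 12842 genes, whose transform is not named. The submitters' processing notes list bcl2fastq 1.8.4, TopHat, Cufflinks, DESeq, DESeq2 and the mm9 build, with no roles. Of 12 value columns, 3 could be tied to no described sample and were left out. Values were fitted with limma 3.58.1 in R 4.3.3 (2 groups, eBayes with a mean-variance trend) after a filter at 3.78, the median of the lowest 10% of values, with Benjamini-Hochberg adjustment over all genes. The procedure was tested on simulated data. Exact permutation tests of 3 against 3 libraries cannot give a p below 0.1 and are not quoted. Identifiers were matched to GENCODE M21 (GRCm38), not the mm9 build, and 12513 of 12842 (97.4%) were found. Psmb9 has an older identifier and was matched by symbol. Tables and plots were made with Python 3.11.15, SciPy 1.17.1 and matplotlib 3.10.9.

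The genes and lists were chosen with earlier results of these data known. The named genes are all 10 class I genes, Nsd2, up to 4 called genes per list with the largest changes, all genes of lists with 5 or fewer measured, and the most alike genes. Irf1, Cd274, Slc39a7, Nsd3, genes named for having no row and any others outside this rule were chosen after their values were seen. Some genes that the rule covers, and some alleles of the mice, are not reported here. Alternatives were the whole table without a filter, a single fit of all 9 libraries, the replicate number as a block, quantile normalization, median centring, no trend, lowess correction for transcript GC content (span 0.3) and each library left out.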

Additional observations from a re-analysis of the deposited data

How the results depend on the processing

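Tap1 and B2m with shNsd2, Tap1, Tap2 and Psmb8 with MCTP, and Tap1, Tap2, Psmb8 and Psmb9 between shNsd2 and MCTP were called under all 13 alternatives each. Class I genes called with shNsd2 numbered 2 in a fit of all 9 libraries, 3 with the replicate block, which left out H2-K1 (adjusted p = 0.0902) and Psmb10 (adjusted p = 0.106), 3 after median centring and 6 after GC correction, 1 higher and 5 lower, against 5, 2 higher and 3 lower, and 2 to 5 with a library left out. With MCTP they numbered 4 to 7 with a library left out and 4 to 6 under the other settings, against 5. Between shNsd2 and MCTP the replicate block gave 4, without H2-D1, B2m and Tapbp, and GC correction 9, against 7, and leaving out a library 4 to 9. All genes called with MCTP ranged from 2046 to 7384 with a library left out, against 4305. Those between shNsd2 and MCTP ranged from 3391 to 7781, against 5276, and those with shNsd2 from 4340 to 6018, against 5836. After GC correction they numbered 5656 with MCTP, 6977 between shNsd2 and MCTP and 6825 with shNsd2. Same-numbered libraries deviated apart (mean r -0.25 for shNsd2 and control, -0.19 for MCTP and control, -0.36 for shNsd2 and MCTP), though 1 of 3 pairs in each comparison correlated positively (0.25 for pair 2, 0.61 for pair 3 and 0.35 for pair 1, in that order). Not every pair was above 0.1, so the replicate number was used only as an alternative setting. Deviations from the mean of 3 libraries depend on one another, and 1 outlying library can dominate them. Whether same-numbered libraries share a culture or preparation was not tested.

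Signs turned only for differences that were not called. With GC correction, Psmb9 with shNsd2 was at -0.038, and with MCTP H2-K1 was at -0.0946, B2m at 0.166 and Psmb10 at -0.0272. Median centring put B2m with MCTP at 0.0031. Psmb9 with shNsd2 was -0.00031 without control replicate 1 and -0.0096 without shNsd2 replicate 3, in a range from -0.0096 to 0.0216 with a library left out. H2-K1 with MCTP was -0.0509 without control replicate 1, -0.0258 without MCTP replicate 1 and -0.0392 without MCTP replicate 3, in a range up to 0.0657. The cause was not tested. Depth is unknown, so no limit from counting can be given.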
